A study of Mus musculus with 6 samples.

Results

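The 7 genes described here encode chemokines and cytokines that epithelial cells of the intestine are known to make: the chemokines *Ccl25*, *Ccl28*, *Cxcl16*, *Cx3cl1* and *Cxcl10*, and the cytokines *Il15* and *Il18*. They were chosen by symbol, and 6 of the 7 could be paired with an identifier among the 20409 features of the count table. *Ccl28* could not be paired with an identifier by the annotation used and was not analysed here. Villus epithelium was isolated with EDTA from the duodenum of 3 wild-type mice (WTV) and 3 double mutant mice (DMV), and the polyadenylated RNA of each mouse was sequenced as 1 library. The double mutants were Smad4 fl/fl; Ctnnb exon3 fl/wt; Villin-CreERT2 mice on a background enriched for C57BL6, in which tamoxifen removes Smad4, the shared transducer of TGF-beta and BMP signals, and makes β-catenin, the transducer of Wnt signals, resistant to degradation. The Villin promoter drives the Cre across the intestinal epithelium, and is not known to act in the lymphocytes, stroma or vessels of the gut wall. The double mutants received 4 intraperitoneal injections of tamoxifen at 0.05 g/kg on consecutive days, and villi were taken 7 days after induction. The wild-type mice were uninjected littermates, so that the genotype and the drug cannot be told apart. Each group held 1 male (replicate 1) and 2 females, and the ages of the mice were not given in the sources used here.

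Chemokines are small secreted proteins that draw leukocytes bearing the matching receptor along a gradient, and in the small intestine the enterocytes themselves make several of them. CCL25 draws gut-homing T cells and plasma cells through CCR9, CCL28 acts through CCR10 and CCR3, CXCL16 through CXCR6, CX3CL1 through CX3CR1, and CXCL10 through CXCR3. CXCL16 and CX3CL1 are made as membrane-anchored proteins that the proteases ADAM10 and ADAM17 can shed. IL-15, presented to neighbouring lymphocytes on IL-15 receptor alpha, sustains intraepithelial lymphocytes, and IL-18 is stored as a precursor that inflammasome-activated caspase-1 cleaves, so that the transcript level of either is not a measure of the active protein.

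The libraries held 19678507 to 26337318 counts, and 3 counts, taken as the smallest level this depth can show, corresponded to 0.125 to 0.163 CPM (the usual depth-normalised count of a gene, relative to the library total scaled by edgeR's TMM factors). *Smad4*, the inactivated gene, was at 120, 180 and 144 CPM in WTV and at 26.1, 36.8 and 32.1 CPM in DMV, as the labels state. Pearson's r of log2 CPM over genes ran from 0.957 to 0.984 between wild-type libraries and from 0.980 to 0.982 between double mutant libraries. The library WTV 1 stood apart from WTV 2 and WTV 3 in 5 lists of cell type markers. In it, 8 goblet cell markers summed to 125 CPM against 11600 and 11000, and 7 Paneth cell markers to 8.29 CPM against 979 and 1620. Markers of T cells and intraepithelial lymphocytes summed to 119 CPM against 243 and 244, leukocyte markers to 24.3 against 48.8 and 43.4, and myeloid markers to 8.25 against 16.2 and 16.3. The 7 general epithelial markers summed to between 11200 and 11500 CPM in WTV and between 9240 and 10300 CPM in DMV. Among them *Epcam* was at 1780 ± 138 and 1820 ± 68.6 CPM, *Krt19* rose 2.92-fold, and *Vil1* and *Cldn7* fell 1.80-fold and 1.33-fold (adjusted p of 0.000231, 0.0012 and 0.0356, edgeR). The 10 enterocyte markers summed to between 52300 and 62700 CPM in WTV and between 32600 and 36900 CPM in DMV. Of the 13346 genes tested with edgeR's quasi-likelihood test, 36.8% were called at an adjusted p (Benjamini-Hochberg) under 0.05, with 19.7% higher and 17.0% lower in DMV. In bulk samples such as these, fewer cells of a type and less RNA per cell cannot be told apart.

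The DNA just upstream of 3 of the genes is shown because they took different courses in the mutant villi: *Cxcl10* did not pass the test, *Cx3cl1* was lower and *Il18* was higher. RefSeq's promoter table for GRCm38.p6 held an entry for 5 of the 7 genes (6 entries, with 2 for *Ccl25*), and none for *Cxcl16* and *Il15*. Each sequence below holds the 250 bases before the annotated start of the transcript, read 5′ to 3′ along the strand of the gene, at chr5:92348890-92349139 (minus strand) for *Cxcl10*, chr8:94771930-94772179 (plus strand) for *Cx3cl1* and chr9:50554450-50554699 (plus strand) for *Il18*. Capitals mark every match, on either strand, to 5 motifs: the core of the interferon-stimulated response element (GAAA, any 2 bases, GAAA), the kappaB core (GGGA, any 2 bases, T, any base, CC), the TCF/LEF core of Wnt targets (CTTTGA), the SMAD-binding core (CAGAC) and the TATA box (TATAAA).
Cxcl10: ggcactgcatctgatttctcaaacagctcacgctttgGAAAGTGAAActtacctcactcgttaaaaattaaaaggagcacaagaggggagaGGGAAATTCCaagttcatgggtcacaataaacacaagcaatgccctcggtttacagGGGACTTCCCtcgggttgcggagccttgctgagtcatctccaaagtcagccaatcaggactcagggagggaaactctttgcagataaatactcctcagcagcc
Cx3cl1: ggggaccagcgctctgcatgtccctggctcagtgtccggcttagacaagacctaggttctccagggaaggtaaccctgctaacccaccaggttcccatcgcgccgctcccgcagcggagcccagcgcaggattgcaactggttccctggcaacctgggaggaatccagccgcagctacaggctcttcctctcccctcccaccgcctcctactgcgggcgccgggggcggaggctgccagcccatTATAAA
Il18: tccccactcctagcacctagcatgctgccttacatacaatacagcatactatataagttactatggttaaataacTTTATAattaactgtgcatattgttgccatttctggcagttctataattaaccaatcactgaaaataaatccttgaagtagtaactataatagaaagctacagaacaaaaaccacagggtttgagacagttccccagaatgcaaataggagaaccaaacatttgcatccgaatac
The *Cxcl10* window held 1 interferon-response core, which begins 213 bases before the start, and kappaB cores that begin 159 and 103 bases before it, the second of which reads as a match on both strands. Among 32851 windows of this length, 2.98% held the interferon-response core and 3.33% the kappaB core. The *Cx3cl1* window held a TATA box 6 bases before the annotated start and no other of the 5 motifs, and the *Il18* window held a TATA box on the opposite strand at 175 bases. Of all windows, 12.4% held a TATA box. For *Ccl25*, the first entry held 1 TCF/LEF core at 68 bases and 1 SMAD-binding core at 111 bases, motifs found in 13.8% and 42.2% of all windows, and the second entry held a TATA box at 16 bases. These are matches of letters and not measured binding sites.

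Of the 6 measured transcripts, *Il18* rose in the double mutant villi, *Il15* and *Cx3cl1* fell, and *Ccl25*, *Cxcl16* and *Cxcl10* did not pass the test. *Il18* doubled, with a fold of 2.00, *Il15* was 1.90-fold lower, and *Cx3cl1* was 1.27-fold lower. Counted together, 1 of 6 was higher and 2 of 6 were lower, beside 19.7% and 17.0% of all tested genes, and the wild-type and double mutant libraries did not overlap for 3 of 6, beside 52.4% of all tested genes. The median log2 fold change (DMV minus WTV, called the log2 change from here on) of the 6 was 0.14, against 0.02 over all tested genes, and 0 of 6 reached an absolute log2 change of 2, which 5.30% of tested genes did with an adjusted p under 0.05. With scaling by library size alone, which moved the median of all tested genes by 0.19 and gave 3732 higher and 1425 lower genes in place of 2632 and 2273, 3 of the 6 were higher (*Il18*, *Cxcl16* and *Ccl25*) and 1 was lower (*Il15*).

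**Figure D1:**
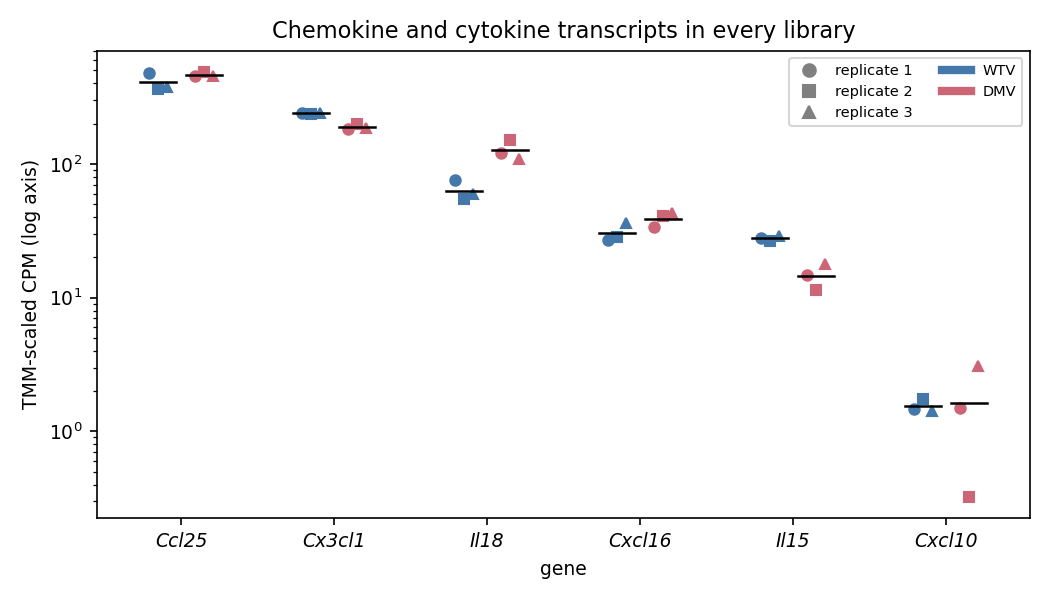
TMM-scaled CPM (log axis) of the 6 measured transcripts in every library, with blue for WTV, red for DMV, a marker shape for each replicate number and a black bar for the group mean (3 mice a group). The groups are apart for *Cx3cl1*, *Il18* and *Il15* and overlap for *Ccl25*, *Cxcl16* and *Cxcl10*.

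*Ccl25* (ENSMUSG00000023235; mm9, chromosome 8, 4325210 to 4360020, plus strand), the chemokine of small intestinal enterocytes, was at 478, 365 and 378 CPM in WTV and at 458, 487 and 452 CPM in DMV. Its double mutant libraries lay close together, and WTV 1 lay above 2 of them, so the groups overlapped. The mean was 407 ± 61.5 CPM in WTV and 465 ± 18.7 CPM in DMV (SD, n = 3 mice), a log2 change of 0.19 (SE 0.129, 95% interval -0.10 to 0.49) with an adjusted p of 0.275 in edgeR's quasi-likelihood test. The interval leaves out a fall of the size seen for *Il15* and a rise of the size seen for *Il18*. With scaling by library size alone the change was 0.39 and passed the test (adjusted p = 0.0332, edgeR). The annotation gives the symbol to a second identifier that shares 1109 exon bases with this one and has no row of its own in the table, so reads of that model may be missing from these counts.

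*Cxcl16* (ENSMUSG00000018920; mm9, chromosome 11, 70267485 to 70273486, minus strand), the membrane-anchored ligand of CXCR6, was at 26.9, 28.6 and 36.4 CPM in WTV and at 33.8, 40.6 and 42.6 CPM in DMV. The highest wild-type library, WTV 3, lay above the lowest double mutant library, DMV 1, and the other libraries were separated by group. The mean was 30.7 ± 5.08 CPM in WTV and 39.0 ± 4.63 CPM in DMV (SD, n = 3 mice), with a log2 change of 0.35 (SE 0.154, 95% interval 0 to 0.70) that did not pass edgeR's test after adjustment (adjusted p = 0.109). Under scaling by library size alone it was 0.54 and passed (adjusted p = 0.0285, edgeR). Its exons share 552 bases with *Zmynd15* on the opposite strand, which was at 0.862 ± 0.200 CPM in WTV and 0.940 ± 0.336 CPM in DMV, a small level beside that of *Cxcl16*.

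*Cx3cl1* (ENSMUSG00000031778; mm9, chromosome 8, 97295909 to 97306323, plus strand) encodes fractalkine, the membrane-anchored ligand of CX3CR1 on mononuclear phagocytes. It was at 241, 238 and 239 CPM in WTV and at 184, 198 and 185 CPM in DMV. The wild-type libraries were nearly alike, and each double mutant library lay below each of them. The mean fell from 239 ± 1.19 to 189 ± 7.86 CPM (SD, n = 3 mice), a log2 change of -0.34 (SE 0.096, 95% interval -0.56 to -0.12) with an adjusted p of 0.0235 (edgeR's quasi-likelihood test). The call was lost when WTV 2, WTV 3, DMV 1 or DMV 3 was left out (adjusted p of 0.063, 0.0613, 0.0562 and 0.093, edgeR), although the change itself stayed between -0.38 and -0.31. It was also lost with library size alone, where the log2 change was -0.15 (adjusted p = 0.252, edgeR), and without a filter on low counts (adjusted p = 0.0535, edgeR).

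*Cxcl10* (ENSMUSG00000034855; mm9, chromosome 5, 92775664 to 92777915, minus strand), a chemokine that interferon gamma induces in many cells, was barely expressed. It had 35, 32 and 28 counts in WTV and 32, 7 and 65 counts in DMV, which correspond to 1.46, 1.74 and 1.42 CPM and to 1.5, 0.325 and 3.09 CPM. The wild-type libraries were alike, while DMV 2 was the lowest and DMV 3 the highest of the 6. The log2 change was 0.09 (SE 0.645, 95% interval -1.39 to 1.57; adjusted p = 0.926, edgeR's quasi-likelihood test), an interval that holds changes as large as those of *Il15* and *Il18* in either direction. Leaving out DMV 3 turned the sign, to -0.74. The exons of *Cxcl10* share 133 bases with *Art3* on the opposite strand, which had at most 6 counts in any library.

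*Il15* (ENSMUSG00000031712; mm9, chromosome 8, 84855536 to 84927121, minus strand), the cytokine that sustains intraepithelial CD8 T cells, was at 27.8, 26.7 and 29.0 CPM in WTV and at 14.8, 11.4 and 17.7 CPM in DMV. The wild-type libraries were close together, and the highest double mutant library, DMV 3, lay well below the lowest of them. The mean fell from 27.8 ± 1.18 to 14.6 ± 3.13 CPM (SD, n = 3 mice), a log2 change of -0.93 (SE 0.170, 95% interval -1.31 to -0.54; adjusted p = 0.00381, edgeR's quasi-likelihood test). *Il15* passed the test in 6 of 6 fits that left out 1 library, with changes from -1.08 to -0.78, and in 8 of 8 fits with another normalization, filter, test or covariate.

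*Il18* (ENSMUSG00000039217; mm9, chromosome 9, 50383378 to 50389942, plus strand), the inflammasome cytokine that epithelial cells hold as a precursor, was at 75.5, 54.7 and 59.3 CPM in WTV and at 121, 150 and 108 CPM in DMV. Each double mutant library lay above each wild-type library, with DMV 2 the highest. The mean rose from 63.1 ± 10.9 to 126 ± 21.3 CPM (SD, n = 3 mice), a log2 change of 1.00 (SE 0.166, 95% interval 0.62 to 1.38; adjusted p = 0.0024, edgeR's quasi-likelihood test). *Il18* also passed in 6 of 6 fits without 1 library, with changes from 0.86 to 1.15, and in 8 of 8 other fits.

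**Figure D2:**
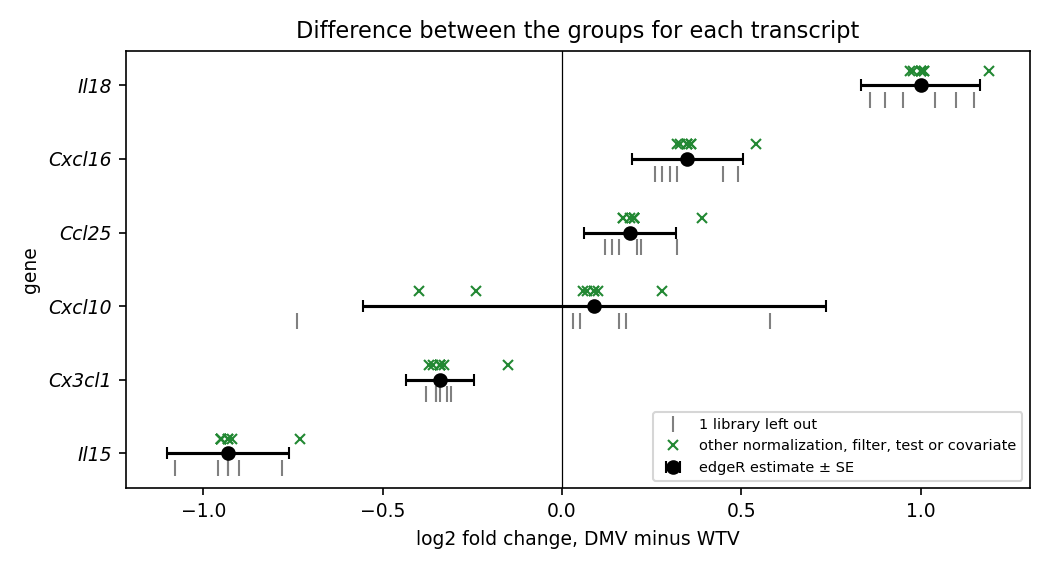
Log2 fold change (DMV minus WTV) of each measured transcript: black points with bars give edgeR's estimate ± SE, grey ticks the estimates with 1 library left out, and green crosses those with another normalization, filter, test or covariate. The estimates for *Il18* lie between 0.86 and 1.19 and those for *Il15* between -1.08 and -0.73, while those for *Cxcl10* lie on both sides of 0.

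The ratio of *Il15* to *Il18* within a library, which no scaling between libraries can alter, restates the 2 changes and is given as a description. The log2 ratio of *Il15* to *Il18* counts was -1.44, -1.04 and -1.03 in WTV and -3.03, -3.71 and -2.61 in DMV. No double mutant library reached the range of the wild-type libraries. The mean ratio went from -1.17 ± 0.236 to -3.12 ± 0.556 (SD, n = 3 mice), a difference of -1.95. In counts, *Il18* exceeded *Il15* by 2.25-fold in WTV and by 8.69-fold in DMV.

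Divided by the length of the exon model, the transcripts can be ordered by level. In WTV, *Ccl25* was the highest at 153 ± 23.0 CPM per kb, followed by *Il18* at 90.0 ± 15.6, *Cx3cl1* at 64.5 ± 0.322, *Il15* at 14.6 ± 0.618, *Cxcl16* at 10.1 ± 1.68 and *Cxcl10* at 1.01 ± 0.116 CPM per kb (SD, n = 3 mice). The ranges of neighbours in this order did not overlap. In DMV, *Il18* at 180 ± 30.4 CPM per kb and *Ccl25* at 174 ± 7.01 CPM per kb overlapped, followed by *Cx3cl1* at 51.0 ± 2.12 CPM per kb. *Cxcl16*, at 12.9 ± 1.53 CPM per kb, lay above *Il15*, at 7.67 ± 1.64 CPM per kb, in the double mutant libraries, the reverse of their order in the wild-type libraries, and *Cxcl10* was again the lowest at 1.08 ± 0.911 CPM per kb. The model of *Il18* holds 1 transcript of 702 exon bases and that of *Ccl25* 8 transcripts with 2668 bases in their union, so that levels per length depend on how completely each gene is annotated.

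**Figure D3:**
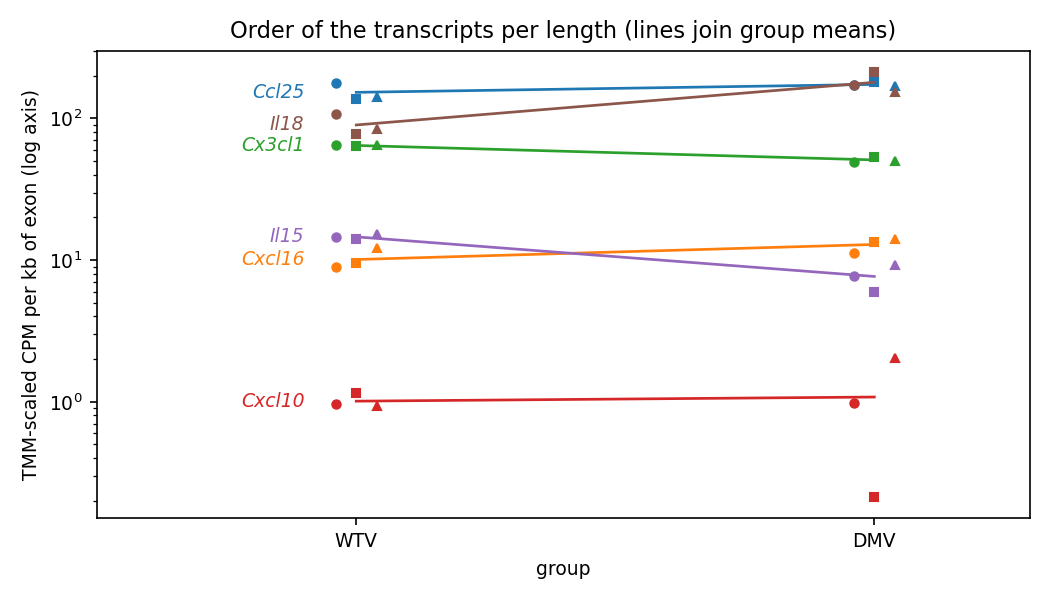
TMM-scaled CPM per kb of exon (log axis) of the 6 measured transcripts in WTV and DMV, with a circle, square and triangle for replicates 1, 2 and 3 and lines between the group means. *Il18* moves from below *Ccl25* to the same range, and *Il15* and *Cxcl16* change places.

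The receptors that these ligands act on were mostly near the limit of detection in the isolated epithelium. Of 11 receptor genes listed, 10 had a row and 5 were high enough to be tested, of which 0 rose and 1 fell, or 20% lower beside 17.0% of all tested genes. The one that fell was *Il2rb*, the signalling chain that IL-15 shares with IL-2, at 4.25, 10.2 and 9.15 CPM in WTV and 4.08, 3.25 and 2.90 CPM in DMV. Each double mutant library lay below each wild-type library, but WTV 1 lay close to DMV 1. The log2 change of *Il2rb* was -1.20 (SE 0.338; adjusted p = 0.0236, edgeR), and the call was lost without WTV 2, WTV 3, DMV 2 or DMV 3 (adjusted p of 0.0879, 0.074, 0.0773 and 0.0845, edgeR) and in limma-voom (adjusted p = 0.065). *Il15ra*, which presents IL-15 and is made by the epithelium itself, was at 15.5 ± 2.06 CPM in WTV and 14.7 ± 2.38 CPM in DMV (log2 change -0.07, SE 0.173; adjusted p = 0.777, edgeR), and its sign turned with library size alone, to 0.12. *Il2rg*, the common gamma chain, had a log2 change of -0.43 (adjusted p = 0.594, edgeR). *Ccr9*, at 1.59 ± 0.770 and 1.41 ± 0.135 CPM, and *Cxcr6*, at 1.08 ± 0.627 and 0.938 ± 0.0727 CPM, had adjusted p of 0.785 and 0.806 (edgeR). *Ccr10*, *Cx3cr1*, *Cxcr3*, *Il18r1* and *Il18rap* were too low to be tested, with means of at most 0.335 CPM in both groups, and *Cx3cr1* had counts in WTV 1 alone.

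In sum, markers of the lymphocytes that carry these receptors were at a lower level in the double mutant villi than in WTV 2 and WTV 3, but not than in WTV 1. The 18 T cell and intraepithelial lymphocyte markers in the table summed to 119, 243 and 244 CPM in WTV and to 103, 123 and 149 CPM in DMV, so that the groups overlapped through WTV 1. Of the 16 tested, 0 rose and 2 fell, *Ccl5* and *Cd8a*, the CD8 alpha chain, or 12.5% lower beside 17.0% of all tested genes, with a median log2 change of -0.91. Without WTV 1, 11 of 16 (68.8%) fell, beside 17.1% of all genes tested in that fit, and the median was -1.14. WTV 1 had the lowest sum of these same markers among the wild-type libraries. Leaving it out therefore widens the difference by that choice, and the count is given as a description alone. *Cd8a* was at 22.8 ± 6.51 CPM in WTV and 12.0 ± 2.45 CPM in DMV (log2 change -0.92; adjusted p = 0.0191, edgeR), and *Ptprc*, which encodes the leukocyte antigen CD45, was at 20.0 ± 5.63 and 8.18 ± 1.88 CPM (log2 change -1.29; adjusted p = 0.00545, edgeR). *Ptprc* belongs to the leukocyte list, where 1 of 4 tested fell, or 25% beside 17.0% of all tested genes. The *Cd8a* call was lost without WTV 2, WTV 3, DMV 1 or DMV 2 (adjusted p from 0.0617 to 0.075, edgeR). The defining T cell genes *Cd3e* (8.87 ± 4.30 and 4.04 ± 1.14 CPM) and *Cd3g* (8.62 ± 2.96 and 4.56 ± 1.71 CPM) were present in every library, with adjusted p of 0.0528 and 0.0697 (edgeR).

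*Il15* was at 27.8 CPM in WTV 1, where the lymphocyte markers summed to 119 CPM, and at 26.7 and 29.0 CPM in WTV 2 and WTV 3, where they summed to 243 and 244 CPM. *Il18* was highest in WTV 1 among the wild-type libraries and still below each double mutant library. The 11 myeloid markers in the table summed to 8.25, 16.2 and 16.3 CPM in WTV and to 11.3, 12.2 and 14.7 CPM in DMV, with 0 of 4 tested lower beside 17.0% of all tested genes, or 2 of 4 without WTV 1 beside 17.1%. The sums of the 8 B and plasma cell markers and of the 7 stromal markers were at most 5.93 and 4.41 CPM, and the 4 endothelial markers summed to between 3.08 and 5.93 CPM in WTV and between 6.55 and 7.37 CPM in DMV. Within the epithelium, 7 of 7 tested tuft cell markers fell, from between 131 and 180 to between 13.8 and 15.8 CPM in sum, as did 6 of 8 tested enteroendocrine markers, from between 238 and 351 to between 102 and 112 CPM, and 6 of 10 enterocyte markers, beside 17.0% of all tested genes. No goblet or Paneth cell marker fell, of 8 and 7 tested, and 1 goblet marker, *Clca1*, rose 2.82-fold (adjusted p = 0.00679, edgeR). Without WTV 1, 5 of 8 goblet and 3 of 7 Paneth cell markers fell, beside 17.1% of all genes. In that fit 1 marker of each of these lists rose. The enterocyte marker *Fabp1* rose (log2 change 0.82; adjusted p = 0.0331, edgeR). The part of the lymphocyte, myeloid and other marker shifts, and of the epithelial ones, in the changes of *Il15*, *Il18* and *Cx3cl1* was not tested.

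**Figure D4:**
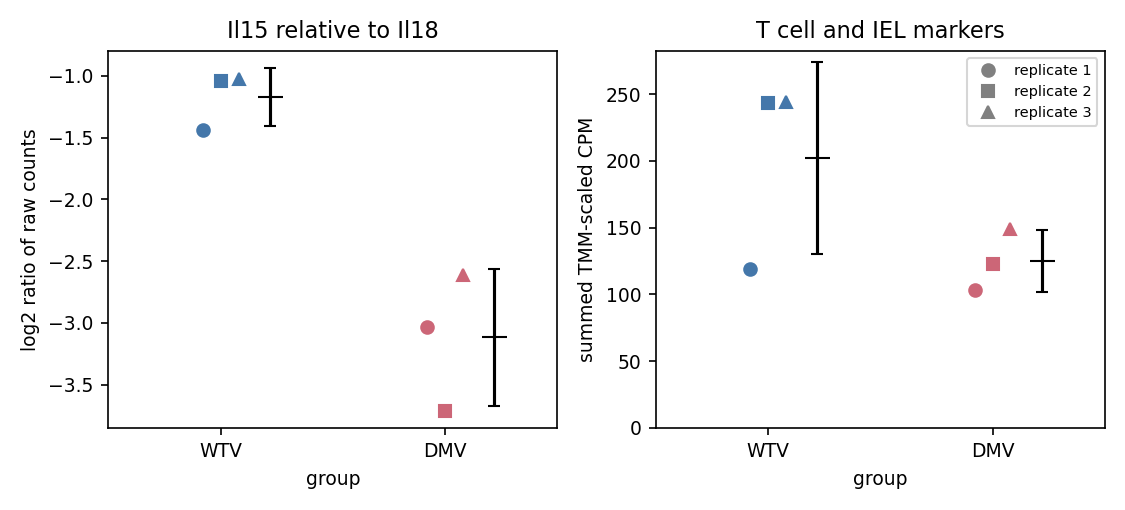
Left, log2 ratio of *Il15* to *Il18* raw counts in every library; right, summed TMM-scaled CPM of the T cell and intraepithelial lymphocyte (IEL) markers, both with the group mean ± SD (n = 3 mice). The ratio lies between -1.44 and -1.03 in WTV (blue) and between -3.71 and -2.61 in DMV (red), while the marker sum of WTV 1, 119 CPM, lies within the range of the double mutant libraries.

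The genes listed next process, release or neutralise these ligands. Of 21 listed, 17 were tested, of which 5 rose (*Pycard*, *Nlrp6*, *Casp1*, *Gsdmd* and *Naip1*) and 1 fell (*Dpp4*), or 29.4% higher and 5.88% lower beside 19.7% and 17.0% of all tested genes, and the median log2 change was -0.04. The count of genes that rose was 2 without WTV 2 or without DMV 2 and 3 without DMV 3. Other inflammasome genes did not pass the test: the log2 change was -0.04 for *Nlrc4*, -0.10 for *Naip2*, -0.12 for *Naip6* and 0.26 for *Casp4*, and -0.33 for *Naip5*, whose double mutant libraries lay below the wild-type libraries (adjusted p = 0.0953, edgeR). *Nlrp1b* was nearly absent from 1 library a group, with 3, 413 and 390 counts in WTV and 263, 1 and 433 counts in DMV, so that its change could not be estimated with any precision (95% interval -5.37 to 4.66 on the log2 scale). *Pycard*, which encodes the adaptor ASC that joins inflammasome sensors to caspase-1, rose from 58.2 ± 12.6 to 195 ± 44.7 CPM (log2 change 1.74, SE 0.206; adjusted p = 0.000609, edgeR), with 50.9, 50.9 and 72.7 CPM in WTV and 156, 244 and 184 CPM in DMV. *Nlrp6*, the sensor that epithelial cells of the intestine express, rose from 300 ± 27.3 to 451 ± 34.9 CPM (log2 change 0.59; adjusted p = 0.00549, edgeR). The groups were apart for both, and each passed in 6 of 6 fits that left out 1 library.

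*Casp1*, the protease that cleaves the IL-18 precursor, was at 114, 109 and 121 CPM in WTV and at 146, 161 and 143 CPM in DMV. Its log2 change was 0.39 (SE 0.104; adjusted p = 0.0185, edgeR), and the call was lost without WTV 2 or DMV 2 (adjusted p of 0.0703 and 0.0664, edgeR). *Gsdmd*, the pore-forming protein through which the mature cytokine leaves the cell, was at 585 ± 44.7 CPM in WTV and 775 ± 105 CPM in DMV (log2 change 0.41; adjusted p = 0.0422, edgeR), and its call was lost with RLE factors (adjusted p = 0.0563) and held in 1 of 6 fits that left out 1 library, the one without DMV 1, with adjusted p from 0.0577 to 0.141 without each of the other 5 libraries. The double mutant libraries lay above the wild-type libraries for both genes. *Naip1*, a sensor gene with near-identical relatives among which reads can be split, had a log2 change of 0.87 (adjusted p = 0.033, edgeR), and its call was lost without WTV 2, DMV 1, DMV 2 or DMV 3 (adjusted p from 0.0535 to 0.101, edgeR), without a filter on low counts (0.0559) and with sex as a covariate (0.0515). *Il18bp*, the soluble decoy for IL-18, was at 18.2 ± 8.02 and 25.4 ± 5.0 CPM (log2 change 0.48; adjusted p = 0.291, edgeR).

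*Dpp4*, a brush border peptidase that trims and inactivates CXCL10 among other chemokines, was the gene of this list that fell, from 1500 ± 205 to 529 ± 47.0 CPM (log2 change -1.51, SE 0.141; adjusted p = 0.000219, edgeR). It was at 1660, 1580 and 1270 CPM in WTV and at 492, 513 and 582 CPM in DMV. The proteases that shed CX3CL1 and CXCL16 did not pass the test. *Adam10* was at 143, 195 and 155 CPM in WTV and 133, 125 and 124 CPM in DMV, with no overlap (log2 change -0.37; adjusted p = 0.0552, edgeR), and it passed without WTV 1 (adjusted p = 0.0205), with RLE factors (adjusted p = 0.0421) and in DESeq2 (adjusted p = 0.0362). *Adam17* was at 43.7 ± 2.74 and 38.1 ± 5.32 CPM (log2 change -0.20; adjusted p = 0.27, edgeR).

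Most other chemokines listed were low or absent in the isolated villi. Of 33 listed, 17 were in the table and 9 were tested, of which 0 rose and 2 fell, or 22.2% lower beside 17.0% of all tested genes, with a median log2 change of 0.46. *Ccl6* was nearly absent from WTV 1 alone, with 0.875, 59.1 and 72.3 CPM in WTV and 65.2, 75.5 and 76.6 CPM in DMV (adjusted p = 0.707, edgeR). The list summed to 46.3 CPM in WTV 1 against 117 and 139 CPM in WTV 2 and WTV 3. Without WTV 1 the median was 0.30. The count that rose was 2 with library size alone, in DESeq2 and with sex as a covariate, and 1 in limma-voom, with the replicate block and without WTV 1. The count that fell was 1 without WTV 2, WTV 3, DMV 1 or DMV 3, and 3 in DESeq2. *Ccl24*, a chemokine for eosinophils, fell from 10.3, 3.26 and 2.73 CPM in WTV to 0.329, 0 and 0.427 CPM in DMV (log2 change -4.41, SE 0.887; adjusted p = 0.00741, edgeR), with a change of -3.55 without WTV 1 and -5.01 without DMV 3. WTV 1 was the highest and each double mutant library lay below each wild-type library. *Ccl5*, which lymphocytes make and which stands in the lymphocyte list too, was at 36.0 ± 13.3 CPM in WTV and 16.4 ± 4.2 CPM in DMV (log2 change -1.14; adjusted p = 0.0238, edgeR), and the call was lost without WTV 2, WTV 3, DMV 1 or DMV 3 (adjusted p from 0.0603 to 0.0825, edgeR) and without a filter on low counts (adjusted p = 0.0516). *Ccl9* was at 0.333, 3.26 and 3.13 CPM in WTV and 8.40, 8.90 and 7.36 CPM in DMV, without overlap (log2 change 1.89; adjusted p = 0.0614, edgeR). *Ccl20*, the ligand of CCR6, was at 1.25, 3.81 and 4.45 CPM in WTV and 7.09, 5.75 and 19.2 CPM in DMV, also without overlap (log2 change 1.76; adjusted p = 0.0634, edgeR). Of the relatives of *Cxcl10* that share its receptor CXCR3, *Cxcl9* was at 0.641 ± 0.421 and 1.28 ± 0.526 CPM (adjusted p = 0.202, edgeR), and *Cxcl11* at 5.73 ± 2.59 and 4.38 ± 1.26 CPM (adjusted p = 0.421, edgeR).

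Among 31 other cytokines listed, 15 were tested, of which 5 rose and 1 fell, or 33.3% higher and 6.67% lower beside 19.7% and 17.0% of all tested genes. Without DMV 3, 3 rose. *Mif*, which encodes macrophage migration inhibitory factor, rose from 10.5 ± 2.47 to 53.5 ± 12.3 CPM (log2 change 2.35, SE 0.222; adjusted p = 0.000254, edgeR), with 8.12, 10.3 and 13.0 CPM in WTV and 48.6, 67.5 and 44.5 CPM in DMV. *Il34*, a ligand of the receptor that CSF1 also uses, rose from 0.778 ± 0.247 to 3.86 ± 1.77 CPM (log2 change 2.31; adjusted p = 0.0047, edgeR). The groups were apart for both genes, and each passed in 6 of 6 fits that left out 1 library. *Tnf* rose from 0, 0.381 and 0.202 CPM to 1.13, 2.04 and 1.33 CPM (log2 change 2.99; adjusted p = 0.0172, edgeR), near the floor in WTV. The change was 2.35 without WTV 1 and 3.91 without WTV 2, and the call was lost without WTV 3 or DMV 2 (adjusted p of 0.0526 and 0.0703, edgeR). *Tnfsf15* and *Csf1* each had a log2 change of 1.83 (adjusted p of 0.0138 and 0.0296, edgeR), both at low levels. *Tnfsf15* was at 1.09 ± 0.381 CPM in WTV and 3.86 ± 1.70 CPM in DMV, and *Csf1* at 0.724 ± 0.379 and 2.58 ± 1.53 CPM. The first call was lost without DMV 1 or DMV 3 (adjusted p of 0.0505 and 0.0549, edgeR) and the second without WTV 3 or DMV 3 (adjusted p of 0.0881 and 0.135, edgeR), with a change of 1.24 without DMV 3. *Tnfsf13*, which encodes the B cell factor APRIL, fell from 10.5 ± 0.705 to 5.77 ± 0.876 CPM (log2 change -0.86; adjusted p = 0.00719, edgeR).

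The regulators listed are transcription factors, receptors and kinases of the interferon, NF-kappaB and intestinal programmes. Of 29 tested, 1 rose and 11 fell, or 3.45% higher and 37.9% lower beside 19.7% and 17.0% of all tested genes, with a median log2 change of -0.18. The count that fell was 6 without WTV 2, 7 without WTV 3 and 6 with library size alone, where 2 rose. *Irf8*, an interferon regulatory factor, rose from 107 ± 15.3 to 195 ± 33.1 CPM (log2 change 0.87; adjusted p = 0.00372, edgeR). *Socs1*, a feedback inhibitor of cytokine receptors, fell from 13.7 ± 3.33 to 5.05 ± 2.08 CPM (log2 change -1.44; adjusted p = 0.0117, edgeR). The interferon lambda receptor chain *Ifnlr1*, listed as *Il28ra* in the annotation, fell from 52.4 ± 9.42 to 26.6 ± 2.79 CPM, the kinase *Jak2* from 315 ± 28.2 to 164 ± 19.4 CPM, and *Stat2* from 129 ± 12.4 to 80.4 ± 3.83 CPM (adjusted p of 0.00215, 0.000958 and 0.00227, edgeR). The groups were apart for these 5 genes, and each passed in 6 of 6 fits that left out 1 library. *Irf1*, a factor known to drive *Il15* and *Cxcl10*, was at 273, 206 and 269 CPM in WTV and 185, 214 and 231 CPM in DMV (log2 change -0.25; adjusted p = 0.208, edgeR). *Cdx2*, the intestinal factor known to act on *Ccl25*, had a log2 change of -0.15 (adjusted p = 0.362, edgeR), which turned to 0.04 with library size alone.

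*Cxcl10* belongs to the genes that interferons induce. Of 27 others of that kind tested, 1 rose and 9 fell, or 3.70% higher and 33.3% lower beside 19.7% and 17.0% of all tested genes, with a median log2 change of -0.31. The count that fell was 14 (51.9%) without WTV 1, beside 17.1% of all genes tested in that fit, with a median of -0.55. It was 5 without WTV 2, DMV 1, DMV 2 or DMV 3 and 4 with library size alone. The count that rose was 1 to 3 over the alternatives. *Ifit2* rose from 2.83, 6.85 and 9.40 CPM in WTV to 32.2, 19.6 and 29.7 CPM in DMV (log2 change 2.10; adjusted p = 0.00834, edgeR). *Oas3*, one of the antiviral oligoadenylate synthetases, fell from 106, 179 and 149 CPM to 55.7, 45.9 and 52.8 CPM (log2 change -1.49; adjusted p = 0.000788, edgeR). No libraries of the 2 groups overlapped for either gene. *Oasl2* (log2 change -1.07), *Usp18*, which restrains the interferon receptor (-0.99), and *Parp14* (-0.81) fell as well, with adjusted p of 0.00376, 0.00661 and 0.00332 (edgeR), and each of these 5 genes passed in 6 of 6 fits that left out 1 library.

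**Figure D5:**
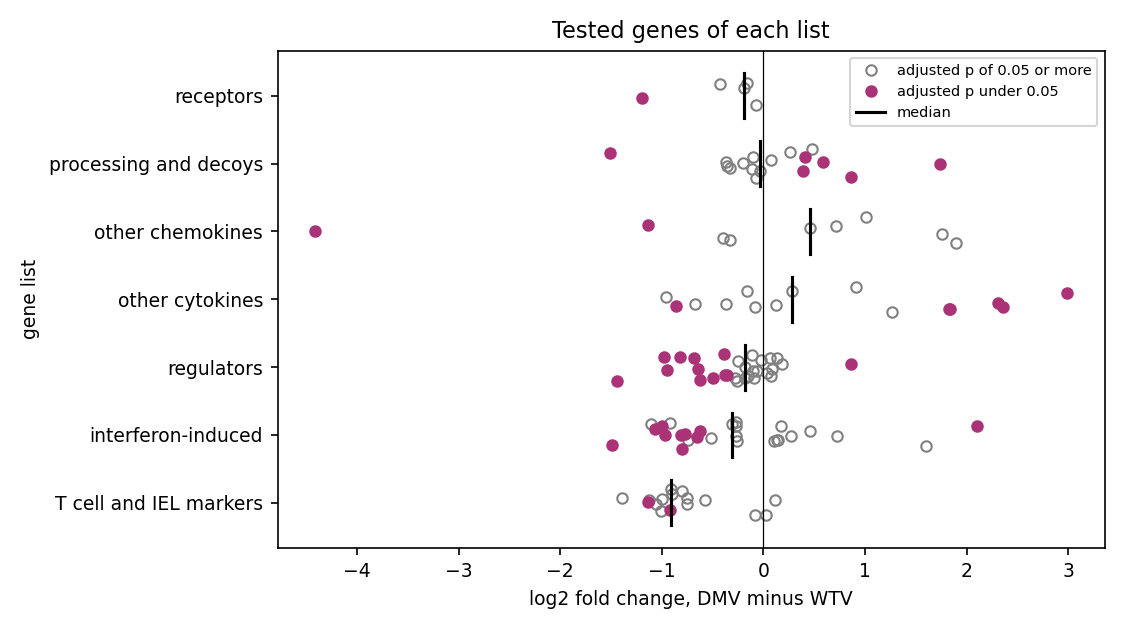
Log2 fold change (DMV minus WTV) of each tested gene in 7 lists, with filled points for an adjusted p under 0.05 in edgeR, open points for the rest and a black bar for the median of the list. The medians run from -0.91 for T cell and intraepithelial lymphocyte (IEL) markers to 0.46 for other chemokines.

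The genes whose log2 CPM ran most closely parallel to *Il18* over the 6 libraries, among 13110 genes compared, were *Setd6* (Pearson's r = 0.9989), *Eif2b4* (0.9978) and *Mrpl19* (0.9972), and those closest to *Il15* were *Mfsd2b* (0.997), *Tnfsf12* (0.9951) and *Pigc* (0.9936). With 3 libraries a group, such values describe mostly a shared difference between the groups: 1250 genes had an r over 0.9 with *Il18* and 1204 with *Il15*. *Tnfsf12*, a cytokine of the TNF family, was at 1.82 CPM in WTV 3 and between 0.510 and 0.997 CPM in DMV.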

How the data were processed

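Villus RNA of 6 mice was measured as 1 polyA-enriched, paired-end library each, and the group of each library came from its label. The authors used HISAT2 for alignment to mm9 and featureCounts for counting, and deposited the counts of each mouse unscaled. The strand setting was not given in the sources used here, so counts of overlapping genes are uncertain. Of 20073 Ensembl identifiers, 20032 had a symbol in GENCODE vM1, and 336 features lay outside the annotation. The labels and the study's methods differ in the EDTA concentration used to release the epithelium.

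Counts were filtered with filterByExpr, scaled by TMM factors and analysed by the robust glmQLFit and glmQLFTest functions of edgeR 4.0.16 (R 4.3.3), with Benjamini-Hochberg adjustment over the 13346 genes tested. SE is the estimate over the root of its F statistic, and the 95% interval uses the degrees of freedom of the fit. The ratio of *Il15* to *Il18* was given without a test, since the changes of both genes were known. No molecular identifiers were used, so floors of 3 counts reflect the counting of reads alone. The procedure was tested on simulated data. DESeq2 1.42.0, limma-voom (limma 3.58.1), RLE factors, library size alone, other filters, a replicate block, sex as a covariate and each library left out were the alternatives.

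Promoter windows were searched on both strands with Python 3.11.15, and figures were drawn with matplotlib 3.10.9. The genes and the lists were chosen with earlier results of these data known, so no list was tested as a set. Of each list, the text names the called gene with the largest rise and fall, the receptors of the 7 ligands, *Adam10*, *Adam17*, *Casp1*, *Pycard*, *Gsdmd*, *Il18bp*, *Dpp4*, *Cdx2* and *Irf1*, up to 4 further called genes, and the 3 genes most parallel to *Il18* and to *Il15*. *Ccl6*, *Ccl9*, *Ccl20*, *Nlrc4*, *Nlrp1b*, *Naip2*, *Naip5*, *Naip6*, *Casp4*, *Cxcl9*, *Cxcl11*, *Cd3e*, *Cd3g*, *Cd8a*, *Cd8b1*, *Gzma*, *Trbc2*, *Ptprc*, *Epcam*, *Krt19*, *Vil1*, *Cldn7*, *Fabp1* and *Clca1* were named after their values were seen. The ratio of *Ccl25* to *Ccl28* was not computed, and 1 other gene is not reported here.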

Additional observations from a re-analysis of the deposited data

Results flagged for a closer look

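The difference of *Ccl25* between the genotypes had opposite signs in males and females. Between the male libraries (WTV 1 and DMV 1) its log2 level was lower in the double mutant, by a difference of -0.06, with 478 and 458 CPM. Between the female libraries it was higher in the double mutant, by a mean log2 difference of 0.34, with 365 and 378 CPM in WTV and 487 and 452 CPM in DMV, without overlap. There was 1 male a group, WTV 1 was also the library that stood apart in its goblet, Paneth and leukocyte markers, and the difference between the sexes was not tested.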

How the results depend on the processing

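The count of genes called, 4905, lay between 3442 and 5144 with 1 library left out and was 708 with an absolute log2 fold change of at least 2. The count of higher genes among the 6 was 3 with library size alone and 0 with that fold threshold. The count of lower genes was 1 with library size alone, without a filter on low counts and with a replicate block, 0 with the fold threshold, and 1 to 2 with 1 library left out. Without WTV 2, WTV 3, DMV 1 or DMV 3 it was 1, as *Cx3cl1* was no longer called. *Cxcl10* turned to -0.40 in limma-voom, -0.24 with the replicate block and -0.74 without DMV 3 (range with 1 library left out, -0.74 to 0.58). Other reversals, with ranges over the fits with 1 library left out, were of genes that did not pass the test: *Ccr9* (0.03 with library size alone, 0.28 without WTV 2, range -0.43 to 0.28), *Cdx2* (0.04 with library size alone), *Cxcr6* (0.09 in limma-voom, 0.18 without WTV 3, range -0.61 to 0.18), *Il15ra* (0.12 with library size alone, 0.04 without WTV 1, 0 without DMV 1 or DMV 3, range -0.21 to 0.04) and *Il2rg* (0.01 without DMV 1, range -0.87 to 0.01). The causes were not tested.

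Of the 84 alternative values of the 6 genes, 72 kept direction and side of the threshold, 7 lost the call, 2 gained it and 3 reversed. No pairing of the mice by the shared replicate numbers was seen: deviations from the group means correlated at 0.022, -0.109 and 0.012 between same-numbered libraries, and not every library correlated best with its own number. With 3 libraries a group these values cannot exclude a pairing, and replicate 1 was the male in both groups. With the replicate block 3834 genes were called (2084 higher, 1750 lower), and *Cx3cl1* was at -0.34 with an adjusted p of 0.0783 (edgeR), while *Il15* and *Il18* kept their calls. The block also ended the calls of *Il2rb*, *Casp1*, *Gsdmd*, *Naip1* and *Csf1* (adjusted p of 0.0648, 0.0647, 0.0795, 0.0672 and 0.0814, edgeR), and left 2 processing genes higher and 5 interferon-induced genes lower. Low counts limit *Cxcl10* and the receptor genes.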
